A study of Homo sapiens with 20 samples.

Results

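NF-kB is a family of transcription factors made of the subunits RELA, RELB, REL, NFKB1 and NFKB2. In resting cells the IkB proteins hold NF-kB dimers in the cytoplasm, and cytokines or DNA damage activate kinases that mark IkB for destruction, after which NF-kB enters the nucleus. Its targets include chemokines, cytokines, adhesion and survival genes, and also its own inhibitors, which end the response. In triple-negative breast cancer cells the pathway is known for basal activity, with secretion of chemokines such as CXCL8 that attract leukocytes. The set described here was a list of 40 gene symbols of these kinds, taken as NF-kB subunits, regulators and known targets and not selected by a cutoff on the values. It was chosen with earlier results of these data known, so its shares beside those of all genes are a description. Of the 40 genes, 38 were measured among the 18417 genes compared. CSF2 and BIRC3 were not analysed here, because no transcript cluster in the table used carried 1 of these symbols alone.

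The cells were MDA-MB-231, an established human triple-negative breast cancer line. Cultures received 36 µM cisplatin (Cis), a platinum drug that crosslinks DNA, 10 µM ammonium tetrathiomolybdate (TM), a copper chelator, or both drugs (Cis/TM), and were harvested after 12 h or 24 h. RNA went onto Affymetrix Human Gene 1.0 ST arrays, 20 in all. TM 12 h had 2 arrays, and untreated or vehicle cells (Control) and each of the other 5 drug groups had 3. The 3 Control arrays carry no time in their labels and served both times, although the methods describe vehicle controls harvested at 12 h and 24 h and the design text speaks of no treatment. All comparisons with Control therefore share these 3 arrays. The wells were triplicates and no source says that they were separate cultures, so the p-values measure the spread between these arrays, which may be technical.

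Values are log2 expression from RMA, the authors' summary of the probes of a transcript cluster. A gene was called when limma's Benjamini-Hochberg adjusted p was under 0.05 and the fold change was over 1.5, which is 0.585 on the log2 scale. Array medians ran from 5.71 to 5.94, and the median standard error of a log2 difference from Control was 0.138. Control arrays correlated with each other at a mean r of 0.984 to 0.985 across genes, and the treated arrays farthest from their own groups were Cis 12 h A, at 0.988, and TM 24 h A, at 0.988. The SD over genes was 2.01 to 2.03 on the Control arrays, 2.03 on Cis 12 h A, 2.04 on TM 24 h A and 2.10 to 2.18 on the other treated arrays. The alternatives include 3 rescalings of the arrays, namely centring on the median, quantile normalization and removal of the trend of differences with level. Of 9 markers of the line, all were above the lowest 25% of genes, among them VIM and CD44. Of 10 luminal epithelial markers 3 lay in that lowest 25%, namely ESR1 and PGR, the hormone receptors a triple-negative line lacks, and CDH1. The other luminal markers (EPCAM, GATA3, FOXA1, ERBB3, CLDN3, CLDN4 and KRT19) did not, and EPCAM had group means from 7.75 to 8.70. Of 10 leukocyte markers 9 were measured, and PTPRC, CD3E, MS4A1, LYZ, CD163 and CD2 lay in the lowest 25%. The mean over the 9 leukocyte markers was 4.20 to 4.30 on the Control arrays and 3.94 to 4.20 on the treated arrays, and its part in the results was not tested.

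Promoter sequences were examined because the list was chosen as NF-kB targets. RefSeq windows (GRCh38.p14, from 250 bases before to 50 bases after a start) were found for 31 of the 38 genes, and not for CCL2, CCL5, CSF1, CSF3, CX3CL1, NFKBIE and RELB. The kappaB consensus, searched on both strands, was present in 18 of the 31 genes (58.1%) and in 13.25% of the 27305 genes with a window. The AP-1 letters TGANTCA, searched in the same way, were present in 4 of the 31 (12.9%), namely CXCL8, IL1A, CFLAR and NFKBIB, and in 9.37% of all genes, and none of these matches overlapped a kappaB match. The 9 letters GGAATTTCC on either strand, picked after the windows had been seen and lying inside kappaB matches in most of them, were present in 12 of the 31 genes and in 0.56% of all genes. These 12 were CXCL1, CXCL2, CXCL3, CXCL5, CXCL6, CXCL8, ICAM1, NFKB1, NFKBIA, NFKBIB, NFKBIZ and REL. A match is a description of letters and not evidence of binding.

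The first stretches below are from the ELR CXC chemokines, which sit together on chromosome 4. All 6 carry the same 9 letters, and 3 of them (CXCL8, CXCL1 and CXCL2) were called with cisplatin. Capitals mark kappaB matches, AP-1 matches and the 9 letters, and each line reads 5′ to 3′ on the gene's strand. In CXCL8 the 9 letters lie at positions -91 to -83 from the start, outside any match to the full kappaB consensus, and an AP-1 match lies upstream of them.
CXCL8, chr4:73740419-73740518, plus strand: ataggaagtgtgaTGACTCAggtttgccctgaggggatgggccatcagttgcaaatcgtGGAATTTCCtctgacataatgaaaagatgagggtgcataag
CXCL1, chr4:73869293-73869342, plus strand: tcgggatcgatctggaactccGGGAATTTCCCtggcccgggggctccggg
CXCL2, chr4:74099246-74099295, minus strand: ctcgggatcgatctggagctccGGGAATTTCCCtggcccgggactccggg
CXCL3, chr4:74038740-74038789, minus strand: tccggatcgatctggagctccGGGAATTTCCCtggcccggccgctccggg
CXCL5, chr4:73998738-73998787, minus strand: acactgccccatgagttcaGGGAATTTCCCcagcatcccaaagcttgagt
CXCL6, chr4:73836568-73836617, plus strand: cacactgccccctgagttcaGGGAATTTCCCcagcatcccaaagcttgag

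The next stretches are from genes of the pathway itself and from CD83, all with values given in full below. NFKBIA and TNFAIP3 encode inhibitors, NFKB2 and NFKB1 encode precursors of subunits, and CD83, a surface protein, had the largest rise after CXCL8. NFKB2 has 3 windows and CD83 and NFKB1 have 2 each in the table, of which 1 is shown.
NFKBIA, chr14:35404800-35404849, minus strand: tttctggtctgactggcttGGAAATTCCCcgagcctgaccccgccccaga
TNFAIP3, chr6:137867169-137867228, plus strand: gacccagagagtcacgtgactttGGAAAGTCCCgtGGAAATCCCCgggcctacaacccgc
NFKB2, chr10:102394458-102394517, plus strand: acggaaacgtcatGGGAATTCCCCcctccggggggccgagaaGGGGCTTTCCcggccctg
NFKB1, chr4:102501289-102501338, plus strand: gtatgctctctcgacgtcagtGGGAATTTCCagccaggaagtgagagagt
CD83, chr6:14117682-14117741, plus strand: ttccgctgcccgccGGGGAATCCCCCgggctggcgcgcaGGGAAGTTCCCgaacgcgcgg

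Cisplatin raised a set of these genes led by CXCL8 and CD83, and few were called with TM alone. At Cis 12 h 12 of the 38 genes rose and 1 fell, which is 31.6% called up against 14.8% of all genes and 2.63% called down against 10.8%, with 25.5% of all genes called in either direction. At Cis 24 h 11 rose and 1 fell, that is 28.9% against 11.5% of all genes up, and 2.63% against 4.9% down, with 16.4% of all genes called. The median log2 fold change over the 38 was 0.37 at Cis 12 h and 0.40 at Cis 24 h, beside -0.01 and -0.03 over all genes. For 18 genes (47.4%) at Cis 12 h and 21 (55.3%) at Cis 24 h all treated arrays were above all Control arrays, against 24.1% and 24.9% of all genes, and for 1 (2.63%) and 4 (10.5%) they were all below, against 23.3% and 20.8%. The arrays hold bulk RNA, so a change in the make-up of the culture and a change in RNA per cell cannot be told apart.

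With Cis/TM 12 h 11 genes rose and none of the 38 was called down, against 15.2% of all genes up, 8.55% down and 23.8% in either direction. At Cis/TM 24 h 7 rose and 1 fell, so 18.4% were up against 4.54% of all genes and 2.63% down against 2.48%, with 7.02% of all genes called. TM alone gave 3 rises at 12 h, which is 7.89% against 8.99% of all genes, and no fall, against 3.11% (12.1% called in either direction). At TM 24 h 1 gene rose and 1 fell, against 5.16% of all genes up, 2.55% down and 7.72% in either direction. The shares for TM alone were thus near those of all genes, and the median over the 38 was 0.09 at TM 12 h and 0.05 at TM 24 h.

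**Figure D1:**
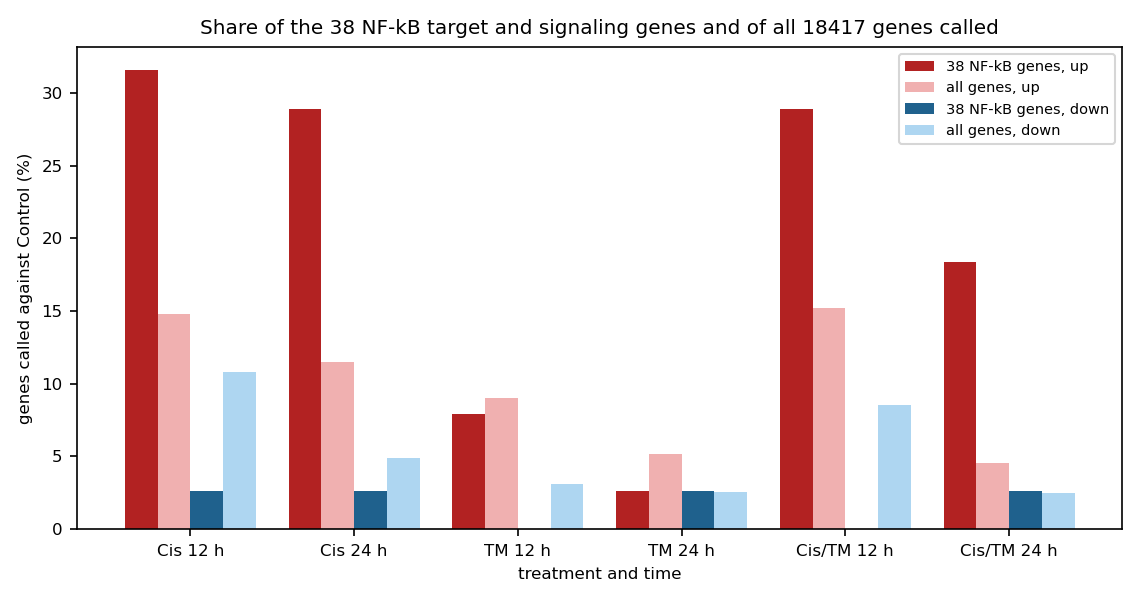
Share of the 38 NF-kB target and signaling genes and of all 18417 genes called against Control (y axis, percent), up and down, for each treatment and time (x axis). In the cisplatin-containing groups the share of the 38 genes called up (18.4 to 31.6%) stands above that of all genes (4.54 to 15.2%).

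In all, 20 genes were called in at least 1 comparison with Control (52.6%, against 34.3% of all genes) and 18 in none, with log2 fold changes of those 18 between -0.57 and 0.58. CXCL8, NFKB2, NFKBIA, TNFAIP3 and CD83 were called up in all 4 cisplatin-containing comparisons (13.2%, against 3.11% of all genes), and they kept these calls under every alternative processing that was run. By role, at Cis 12 h 3 of 6 ELR CXC chemokines, 2 of 5 NF-kB subunits, 2 of 4 IkB proteins, 1 of 5 signaling regulators and 4 of 8 survival, adhesion and other targets rose. Among the 8 survival, adhesion and other targets 1, TNFAIP8, fell. None of the 4 other chemokines and none of the 6 cytokines and growth factors measured was called at that time. Of all genes 14.8% were called up and 10.8% down at Cis 12 h. With 4 to 8 genes in a role these counts are coarse, and no difference between roles was tested.

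**Figure D2:**
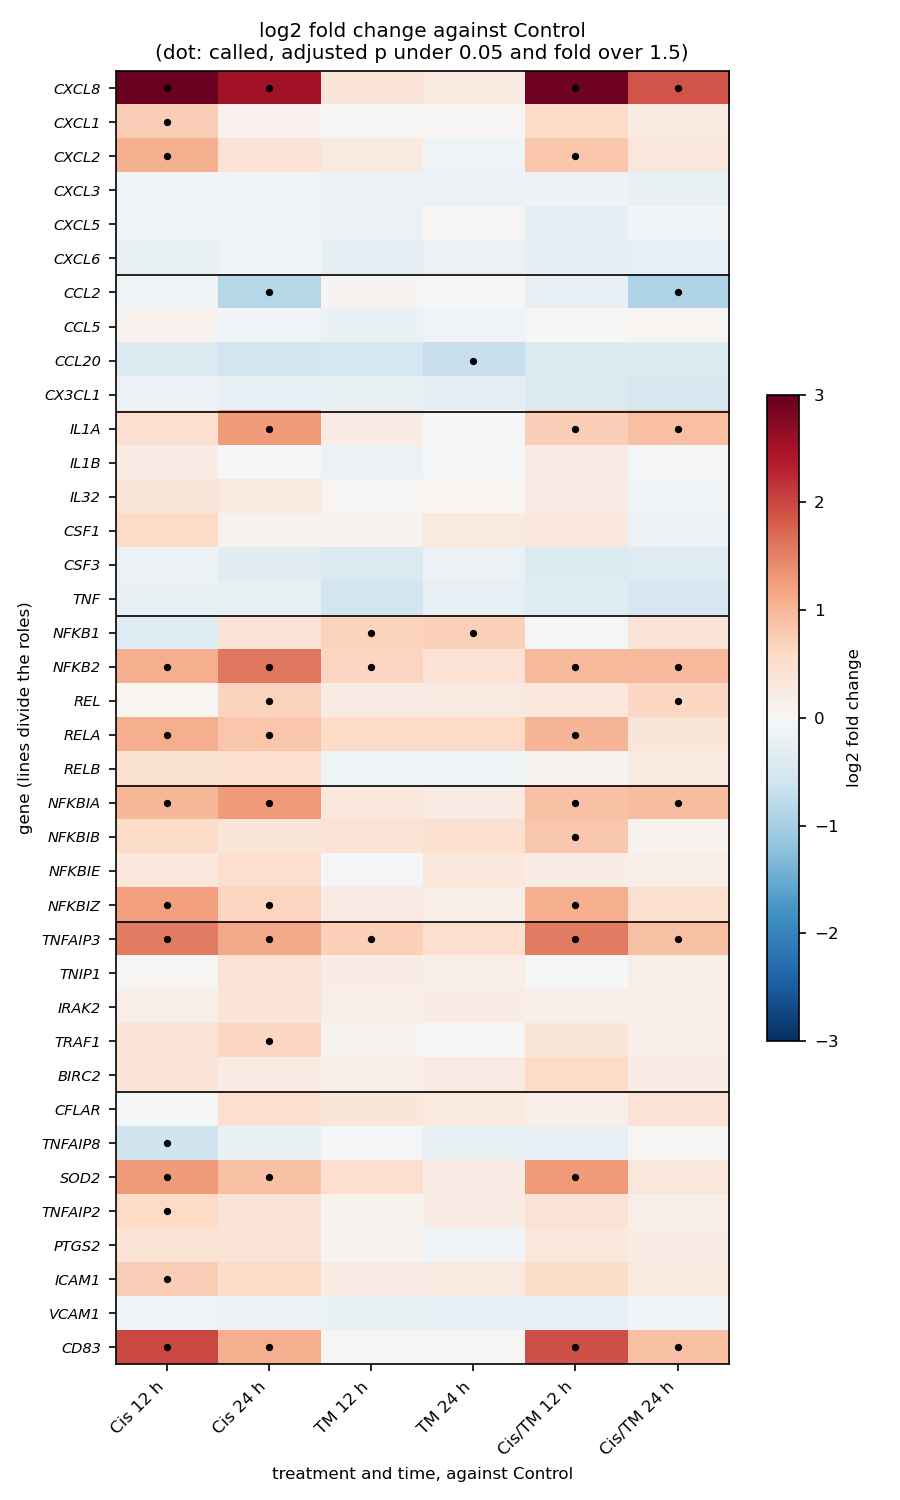
Log2 fold change against Control (color) for each of the 38 genes (rows, grouped by role) in each treatment and time (columns), with a dot where the gene was called. CXCL8 carries the darkest cell of each cisplatin-containing column, CD83 the second darkest at 12 h and NFKB2 at 24 h, and both TM columns are pale, with 5 dots between them.

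CXCL8 (interleukin 8), which draws neutrophils through the receptors CXCR1 and CXCR2, had the largest change of the list. Its values were 5.69, 6.12 and 5.77 on the Control arrays, 8.68, 9.13 and 8.66 at Cis 12 h and 8.57, 8.39 and 8.16 at Cis 24 h. They were 6.38 and 6.09 at TM 12 h, 6.06, 6.18 and 6.14 at TM 24 h, 8.88, 8.65 and 8.83 at Cis/TM 12 h and 7.95, 7.63 and 7.70 at Cis/TM 24 h. Every array that received cisplatin was above every array that did not, and the TM arrays overlapped Control. CXCL8 rose 7.8-fold at Cis 12 h (log2 2.96 ± 0.15 SE, limma adjusted p = 1.99e-11). The rise was 5.71-fold at Cis 24 h (adjusted p = 6.21e-10) and 7.6-fold at Cis/TM 12 h (adjusted p = 3.95e-11). At Cis/TM 24 h it was smaller, at 3.73-fold (log2 1.90 ± 0.15 SE, adjusted p = 7.25e-08).

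Of the other ELR CXC chemokines, which use the same receptor CXCR2, CXCL1 and CXCL2 were called against Control. CXCL2 read 5.29, 5.05 and 4.46 in Control, 6.00, 6.17 and 5.83 at Cis 12 h and 5.17, 5.58 and 5.38 at Cis 24 h. It read 5.12 and 5.30 at TM 12 h, 5.08, 4.96 and 4.39 at TM 24 h, 5.61, 5.92 and 5.76 at Cis/TM 12 h and 5.33, 5.15 and 5.34 at Cis/TM 24 h. Both 12 h groups with cisplatin lay above all Control arrays, whereas the 24 h groups overlapped Control. CXCL2 rose by 1.07 ± 0.19 (log2, SE) at Cis 12 h (adjusted p = 9.8e-05) and by 0.83 ± 0.19 at Cis/TM 12 h (adjusted p = 0.00128).

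CXCL1 had 5.60 to 6.47 in Control and 6.68 to 7.10 at Cis 12 h, a log2 rise of 0.74 ± 0.21 (SE, adjusted p = 0.00641). That call rested on Control C, the lowest Control array, and was lost without it (0.48), and also under quantile normalization (adjusted p = 0.0521) and with the trend with level removed (adjusted p = 0.0619). CXCL3, CXCL5 and CXCL6 were called in no comparison, with log2 fold changes against Control from -0.30 (CXCL6 at Cis/TM 12 h) to 0.04 (CXCL5 at TM 24 h). CXCL3 (mean 4.52) and CXCL6 (mean 4.60) lay just above the lowest 25% of genes (cutoff 4.51), so a change in them may be missed. CXCL1, CXCL2 and CXCL3 are near-identical paralogs, so probe signal may be shared between them and their separate values are uncertain.

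CCL2 (monocyte chemoattractant protein 1) fell after 24 h of cisplatin. It measured 10.06, 9.99 and 10.05 in Control, 10.06, 9.90 and 9.84 at Cis 12 h and 9.24, 9.08 and 9.16 at Cis 24 h. It measured 10.14 and 10.08 at TM 12 h, 9.89, 10.09 and 10.11 at TM 24 h, 9.77, 9.85 and 9.76 at Cis/TM 12 h and 9.12, 9.17 and 9.05 at Cis/TM 24 h. All 6 arrays with cisplatin for 24 h were below all other arrays. The log2 change was -0.87 ± 0.09 (SE, adjusted p = 6.2e-07) at Cis 24 h and -0.92 ± 0.09 (adjusted p = 1.32e-06) at Cis/TM 24 h. At Cis 12 h it was -0.10 ± 0.09 with overlapping arrays.

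Among the other chemokines, CCL20, a ligand of CCR6, was called down at TM 24 h. Its arrays read 3.97, 3.87 and 3.96 there against 4.39, 4.17 and 5.29 in Control, of which Control C stood high. The change of -0.68 ± 0.20 (log2, SE, adjusted p = 0.0202) became -0.34 (adjusted p = 0.105) without Control C and was not called without TM 24 h B either (-0.65, adjusted p = 0.0599). The call was also lost with quantile normalization (-0.62, adjusted p = 0.0724), after removal of the trend (-0.57, adjusted p = 0.0652) and with only the compared arrays (adjusted p = 0.151). CCL20 belonged to the lowest 25% of genes by mean, where RMA values hold little signal. CCL5, a T cell and monocyte attractant, and CX3CL1 (fractalkine) were not called, and CX3CL1 had -0.49 ± 0.17 at Cis/TM 24 h with an adjusted p of 0.048 and a fold below 1.5.

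IL1A (interleukin 1 alpha) was the cytokine that rose. It had 5.26, 5.20 and 5.55 in Control, 5.29, 6.20 and 6.07 at Cis 12 h and 6.62, 6.48 and 6.75 at Cis 24 h. It had 5.64 and 5.48 at TM 12 h, 4.96, 5.41 and 5.58 at TM 24 h, 5.88, 6.07 and 6.25 at Cis/TM 12 h and 6.34, 6.25 and 6.15 at Cis/TM 24 h. Cis 12 h A lay within the Control range while Cis 12 h B and C lay above it. IL1A rose by 1.28 ± 0.19 (log2, SE) at Cis 24 h (adjusted p = 3.74e-05), by 0.73 ± 0.19 at Cis/TM 12 h (adjusted p = 0.00395) and by 0.91 ± 0.19 at Cis/TM 24 h (adjusted p = 0.00254). At Cis 12 h the log2 difference was 0.51 ± 0.19, and it was called without Cis 12 h A (0.80) or without Control C (0.62).

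The remaining cytokines were not called against Control at any time. CSF1, the macrophage colony-stimulating factor, came nearest, with 0.58 ± 0.13 at Cis 12 h (adjusted p = 0.0014) and a fold just under 1.5. TNF, the classical NF-kB inducer, read 4.75, 5.42 and 4.49 in Control and 4.30 and 4.35 at TM 12 h, a log2 difference of -0.57 ± 0.21 (SE) with an adjusted p of 0.0594. IL1B, in the lowest 25% of genes, and IL32 and CSF3 had log2 differences from -0.44 (CSF3 at TM 12 h) to 0.37 (IL32 at Cis 12 h).

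Of the 5 NF-kB subunits, 4 were called in at least 1 comparison with Control, against 34.3% of all genes. The calls of 2 of them, NFKB1 and REL, were lost with quantile normalization. RELA (p65), the main transactivating subunit, had 7.69, 7.94 and 7.68 in Control, 8.98, 8.77 and 8.81 at Cis 12 h and 8.60, 8.65 and 8.57 at Cis 24 h. It had 8.42 and 8.26 at TM 12 h, 8.32, 8.19 and 8.51 at TM 24 h, 8.91, 8.65 and 8.77 at Cis/TM 12 h and 8.20, 8.13 and 8.07 at Cis/TM 24 h. Each treated array was above the highest Control array. RELA rose by 1.09 ± 0.11 (log2, SE, adjusted p = 9.08e-08) at Cis 12 h, by 0.84 ± 0.11 (adjusted p = 6.93e-06) at Cis 24 h and by 1.01 ± 0.11 (adjusted p = 2.96e-07) at Cis/TM 12 h. Under TM alone the difference was 0.57 ± 0.12 at 12 h (adjusted p = 0.00175) and 0.57 ± 0.11 at 24 h (adjusted p = 0.000935), just short of the fold threshold. At Cis/TM 24 h it was 0.37 ± 0.11 (adjusted p = 0.0218), also under that threshold.

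NFKB2 (p100), the precursor of p52 in the non-canonical pathway, had 5.55, 5.60 and 6.17 in Control, 6.99, 6.92 and 6.67 at Cis 12 h and 7.44, 7.49 and 7.14 at Cis 24 h. It had 6.29 and 6.54 at TM 12 h, 6.30, 6.01 and 6.30 at TM 24 h, 6.87, 6.59 and 6.76 at Cis/TM 12 h and 6.86, 6.62 and 6.77 at Cis/TM 24 h. The cisplatin-treated arrays were all above Control, although Control C stood above the other Control arrays. NFKB2 rose 3-fold at Cis 24 h (log2 1.59 ± 0.15 SE, adjusted p = 2.55e-07). The log2 rise was 1.09 ± 0.15 at Cis 12 h (adjusted p = 7.6e-06), 0.97 ± 0.15 at Cis/TM 12 h (adjusted p = 3.41e-05) and 0.98 ± 0.15 at Cis/TM 24 h (adjusted p = 0.000209). At TM 12 h it was called as well (0.64 ± 0.17, adjusted p = 0.00975), but this call was lost under each of the 3 rescalings of the arrays and without Control A (0.53), Control B (0.56) or TM 12 h B (0.52), and with only the compared arrays (adjusted p = 0.0992).

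NFKB1 (p105, the precursor of p50) was called up with TM alone and in no comparison of a cisplatin-treated group with Control. It had 7.96, 7.73 and 8.0 in Control, 7.18, 7.75 and 7.59 at Cis 12 h and 8.44, 8.25 and 8.25 at Cis 24 h. It had 8.57 and 8.62 at TM 12 h, 8.42, 8.75 and 8.63 at TM 24 h, 7.86, 7.80 and 7.94 at Cis/TM 12 h and 8.32, 8.32 and 8.20 at Cis/TM 24 h. The TM arrays were above all Control arrays, and the lowest value of the gene was in Cis 12 h A. The log2 rise was 0.70 ± 0.14 (SE, adjusted p = 0.00138) at TM 12 h and 0.70 ± 0.13 (adjusted p = 0.000639) at TM 24 h. With quantile normalization these became 0.48 and 0.57, under the fold threshold, and with the trend with level removed the TM 12 h call was lost as well (0.50). At Cis 12 h the difference was -0.39 ± 0.13, at Cis 24 h 0.42 ± 0.13.

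REL (c-Rel) had 7.37 to 7.62 in Control and 8.03 to 8.31 at Cis 24 h, a log2 rise of 0.68 ± 0.12 (SE, adjusted p = 0.000207). At Cis/TM 24 h it rose by 0.61 ± 0.12 (adjusted p = 0.00157), a call lost without Control B (0.53), Cis/TM 24 h A (0.55) or Cis/TM 24 h C (0.57). Quantile normalization (0.43 and 0.45) and removal of the trend with level (0.44 and 0.47) ended both calls, and median centring ended that at Cis/TM 24 h (0.58). RELB, the partner of p52, was not called, with 0.49 ± 0.15 at Cis 24 h (adjusted p = 0.0182).

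Among the IkB proteins NFKBIA (IkB alpha), which retains NF-kB in the cytoplasm and is resynthesized on activation, had 8.28, 8.17 and 8.39 in Control, 9.33, 9.21 and 9.28 at Cis 12 h and 9.69, 9.52 and 9.44 at Cis 24 h. It had 8.60 and 8.57 at TM 12 h, 8.51, 8.42 and 8.69 at TM 24 h, 9.28, 8.98 and 9.19 at Cis/TM 12 h and 9.34, 9.17 and 9.10 at Cis/TM 24 h. Every treated array was above Control, and the cisplatin-treated arrays were above the TM arrays. NFKBIA rose by 0.99 ± 0.11 (log2, SE, adjusted p = 2.69e-07) at Cis 12 h and 1.27 ± 0.11 (adjusted p = 5.23e-08) at Cis 24 h. In the double treatment it rose by 0.87 ± 0.11 at 12 h and 0.92 ± 0.11 at 24 h (adjusted p = 1.78e-06 and 9.03e-06).

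NFKBIZ (IkB zeta), a nuclear IkB protein that helps activate secondary targets, had 5.67, 5.93 and 6.21 in Control, 7.12, 7.18 and 7.20 at Cis 12 h and 6.54, 6.60 and 6.61 at Cis 24 h. It had 6.27 and 6.10 at TM 12 h, 5.90, 6.25 and 6.23 at TM 24 h, 7.09, 6.96 and 7.05 at Cis/TM 12 h and 6.51, 6.32 and 6.40 at Cis/TM 24 h. The cisplatin-treated arrays stood above Control and the TM arrays overlapped it. The log2 rise was 1.23 ± 0.12 (SE, adjusted p = 8.39e-08) at Cis 12 h and 1.10 ± 0.12 (adjusted p = 4.52e-07) at Cis/TM 12 h. At Cis 24 h it was 0.65 ± 0.12 (adjusted p = 0.000357), a call lost under each of the 3 rescalings (0.43 to 0.56) and without Control A (0.51).

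NFKBIB (IkB beta) was called at Cis/TM 12 h and in no other comparison with Control. It read 5.95, 6.02 and 5.95 in Control, 6.49, 6.50 and 6.58 at Cis 12 h and 6.26, 6.39 and 6.37 at Cis 24 h. It read 6.33 and 6.44 at TM 12 h, 6.48, 6.50 and 6.36 at TM 24 h, 6.73, 6.84 and 6.79 at Cis/TM 12 h and 6.11, 5.99 and 6.13 at Cis/TM 24 h. The Cis/TM 12 h arrays were the highest and the Cis/TM 24 h arrays overlapped Control. NFKBIB rose by 0.81 ± 0.08 (log2, SE, adjusted p = 1.87e-07) at Cis/TM 12 h and differed by 0.10 ± 0.08 (adjusted p = 0.412) at Cis/TM 24 h. Cis 12 h (0.55), Cis 24 h (0.37), TM 12 h (0.41) and TM 24 h (0.48) lay between these and under the fold threshold. NFKBIE (IkB epsilon) was not called, with 0.49 ± 0.16 at Cis 24 h (adjusted p = 0.0199).

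TNFAIP3 (A20), a ubiquitin-editing enzyme that shuts off NF-kB signaling, had 4.70, 5.50 and 5.07 in Control, 6.61, 6.61 and 6.74 at Cis 12 h and 6.45, 6.07 and 6.16 at Cis 24 h. It had 5.78 and 5.84 at TM 12 h, 5.51, 5.68 and 5.58 at TM 24 h, 6.90, 6.38 and 6.68 at Cis/TM 12 h and 5.89, 5.91 and 6.09 at Cis/TM 24 h. The Control arrays were spread widely, and still every treated array lay above them, TM 24 h A by less than 0.01. TNFAIP3 rose 2.95-fold at Cis 12 h (log2 1.56 ± 0.16 SE, adjusted p = 1.42e-07) and 2.95-fold at Cis/TM 12 h (adjusted p = 1.84e-07). At 24 h the log2 rise was 1.13 ± 0.16 with cisplatin (adjusted p = 2.08e-05) and 0.87 ± 0.16 with both drugs (adjusted p = 0.000885). At TM 12 h it rose by 0.72 ± 0.18 (adjusted p = 0.00612), a call lost without Control A (0.53) or TM 12 h B (0.69, adjusted p = 0.0573) and with only the compared arrays (adjusted p = 0.0876).

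TRAF1, an adaptor of TNF receptors, was 4.73 to 5.01 in Control and 5.52 to 5.54 at Cis 24 h, a log2 rise of 0.63 ± 0.10 (SE, adjusted p = 7.9e-05) that fell under the fold threshold without Control B (0.54) and with median centring (0.54). BIRC2 (cIAP1), a ubiquitin ligase of TNF receptor complexes, had 0.57 ± 0.11 at Cis/TM 12 h (adjusted p = 0.000235), just short of that threshold. TNIP1, which binds A20, and IRAK2, a kinase-like protein of interleukin 1 signaling, were not called, with at most 0.44 and 0.38 at Cis 24 h.

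CD83, a surface protein best known from mature dendritic cells, had 6.37, 6.72 and 6.62 in Control, 8.57, 8.57 and 8.52 at Cis 12 h and 7.73, 7.68 and 7.59 at Cis 24 h. It had 6.55 and 6.69 at TM 12 h, 6.45, 6.71 and 6.66 at TM 24 h, 8.60, 8.36 and 8.56 at Cis/TM 12 h and 7.42, 7.41 and 7.52 at Cis/TM 24 h. The TM arrays lay inside the Control range and all cisplatin-treated arrays above it. CD83 rose 3.95-fold at Cis 12 h (log2 1.98 ± 0.11 SE, adjusted p = 5.03e-11) and 3.83-fold at Cis/TM 12 h (adjusted p = 9.14e-11). At 24 h the log2 rise was 1.09 ± 0.11 with cisplatin and 0.88 ± 0.11 with both drugs (adjusted p = 2.3e-07 and 1.29e-05).

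SOD2, the manganese superoxide dismutase of mitochondria, had 9.47, 9.20 and 8.85 in Control, 10.24, 10.77 and 10.36 at Cis 12 h and 10.09, 10.05 and 10.05 at Cis 24 h. It had 9.62 and 9.73 at TM 12 h, 9.45, 9.36 and 9.36 at TM 24 h, 10.46, 10.39 and 10.49 at Cis/TM 12 h and 9.64, 9.39 and 9.48 at Cis/TM 24 h. At 24 h the Cis arrays were above all Control arrays, whereas the Cis/TM arrays overlapped them. SOD2 rose by 1.29 ± 0.14 (log2, SE, adjusted p = 2.69e-07) at Cis 12 h, 0.89 ± 0.14 (adjusted p = 5.84e-05) at Cis 24 h and 1.27 ± 0.14 (adjusted p = 3.83e-07) at Cis/TM 12 h. At Cis/TM 24 h the difference was 0.33 ± 0.14 (adjusted p = 0.104).

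**Figure D3:**
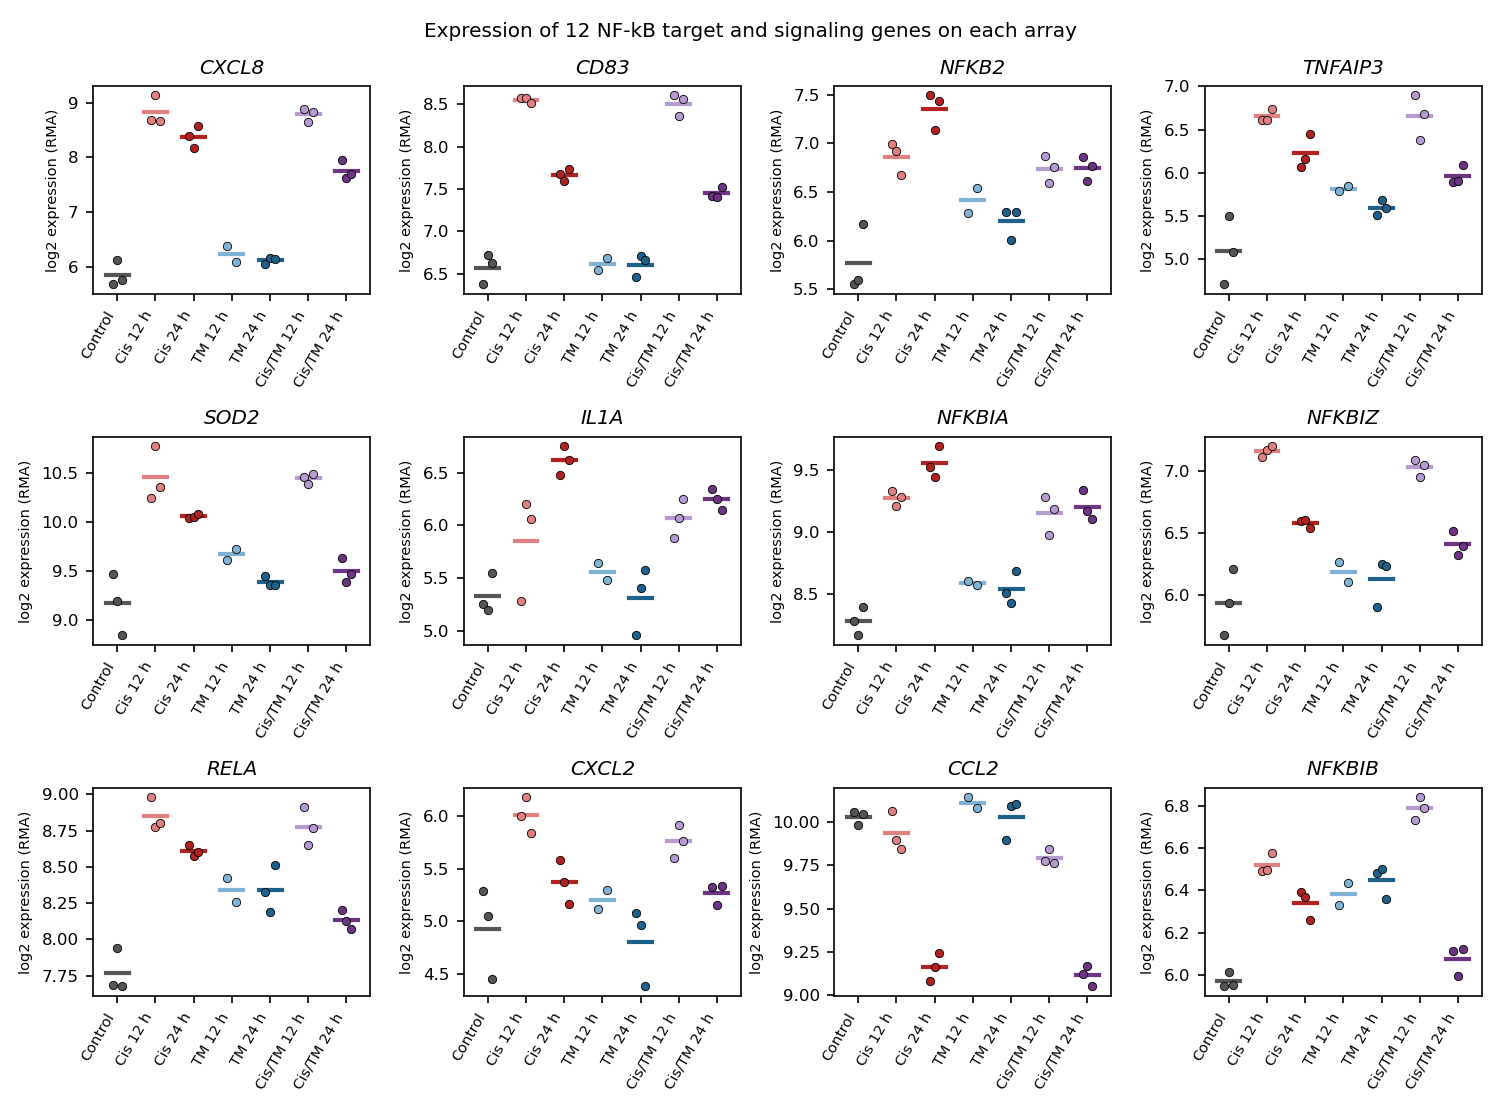
Log2 expression (y axis, its range set for each gene) of 12 genes on each array (points) by treatment and time (x axis), with the group mean as a bar. CXCL8 and CD83 separate all cisplatin-treated arrays from the rest, and CCL2 is low on the 6 arrays with 24 h of cisplatin.

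Of the other adhesion and survival genes, ICAM1, the ligand of leukocyte integrins, had 4.71 to 5.23 in Control and 5.59 to 5.80 at Cis 12 h, a log2 rise of 0.74 ± 0.20 (SE, adjusted p = 0.00457). TNFAIP2 rose by 0.60 ± 0.12 at Cis 12 h (adjusted p = 0.000295), a call lost under each of the 3 rescalings and without Cis 12 h A (0.55) or Control C (0.49). TNFAIP8, an inhibitor of apoptosis, fell by 0.60 at Cis 12 h (adjusted p = 0.0046), which became -0.51 without Cis 12 h A, -0.55 without Control B and -0.43 without Control C, all under the fold threshold. CFLAR (c-FLIP), the inhibitor of caspase 8, had 0.51 ± 0.12 at Cis 24 h (adjusted p = 0.00233), and PTGS2 (cyclooxygenase 2) had 0.41 ± 0.14 (adjusted p = 0.0275), both under the fold threshold. A second transcript cluster of CFLAR, of lower mean, showed no such rise. It read 4.48, 4.28 and 4.23 at Cis 24 h and 4.57, 4.09 and 4.91 in Control. VCAM1, an adhesion molecule in the lowest 25% of genes, was not called.

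Whether TM changed the response to cisplatin was read from Cis/TM against Cis at the same time. At 12 h limma called none of the 38 genes and 0% of all genes, and 5 of the 38 had an unadjusted p under 0.05. These were NFKB1 (0.36, 95% interval 0.10 to 0.63), TNFAIP8 (0.35, 0.01 to 0.68), REL (0.29, 0.04 to 0.54), NFKBIB (0.27, 0.09 to 0.44) and RELB (-0.37, -0.69 to -0.05). Among the genes with the largest rises, CXCL8 differed by -0.04 (95% interval -0.34 to 0.27), CD83 by -0.04 (-0.27 to 0.18), TNFAIP3 by 0.00 (-0.34 to 0.34) and SOD2 by -0.01 (-0.30 to 0.28). The intervals of NFKB1, TNFAIP8, RELB and of CXCL1, CXCL2, CX3CL1, IL1A, CSF3 and ICAM1 reached the fold threshold of 0.585.

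At 24 h the 2 drugs together gave lower values than cisplatin alone for most of the list. The log2 difference was below 0 for 32 of the 38 genes, with a median of -0.20 beside -0.01 over all genes. For 16 of the 38 (42.1%) all Cis/TM arrays were below all Cis arrays, against 17.3% of all genes, and for 1 gene they were all above, against 11.8%. Array medians were also lower, at 5.75 to 5.79 for Cis/TM 24 h and 5.82 to 5.86 for Cis 24 h. The part of this shift in these counts was not tested. CXCL8 and NFKB2 were called down, which is 5.26% against 1.05% of all genes, and none was called up, against 0.456%, with 1.5% of all genes called in either direction. CXCL8 differed by -0.62 ± 0.15 (SE, adjusted p = 0.0253) and NFKB2 by -0.61 ± 0.15 (adjusted p = 0.0327).

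Both calls lay close to the threshold. They were lost when each array was centred on its median (-0.55 and -0.55), with quantile normalization (-0.53 and -0.49) and with the trend with level removed (-0.51 and -0.49). They were also lost without Cis 24 h A (-0.52 and -0.57), Cis 24 h B (-0.61 and -0.54), Cis/TM 24 h B (-0.55 and -0.54) or Cis/TM 24 h C (-0.59 and -0.62). SOD2 (-0.56 ± 0.14, adjusted p = 0.0299), RELA (-0.48 ± 0.11, adjusted p = 0.021) and TRAF1 (-0.43 ± 0.10, adjusted p = 0.0237) were lower with an adjusted p under 0.05 and a fold under 1.5. NFKBIA (-0.35 ± 0.11, adjusted p = 0.074) and CD83 (-0.22 ± 0.11, adjusted p = 0.289) did not pass the test.

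The effect of TM with cisplatin was set against its effect without cisplatin by an interaction term, which is the log2 difference between Cis/TM and Cis less the log2 difference between TM and Control. The terms for 12 h and 24 h share the Control arrays. At 12 h RELA and NFKB2 were called, both negative, which is 5.26% against 6.87% of all genes negative (3.43% positive), with 10.3% of all genes called, so the share was near that of all genes. Neither of these calls held under any of the 3 rescalings. That of RELA was lost without TM 12 h A (-0.57, adjusted p = 0.0875), and that of NFKB2 was lost without any 1 of 8 arrays, namely Control A or B, either TM 12 h array, Cis 12 h A or B, or Cis/TM 12 h B or C (-0.64 to -0.89).

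At 24 h 8 genes had a negative term and CCL20 a positive one. This is 21.1% negative against 11.4% of all genes and 2.63% positive against 5.08%, with 16.5% of all genes called, and the median term was -0.35 over the 38 genes and 0.00 over all genes. By role the 8 were the subunits RELA, NFKB2 and NFKB1, the IkB proteins NFKBIA and NFKBIB, the regulator TNFAIP3, CXCL8 and SOD2. For RELA, TM alone gave 0.57 and TM on top of cisplatin gave -0.48, a difference of -1.05 ± 0.15 (SE, adjusted p = 9.31e-05). For NFKB2 these were 0.43 and -0.61, a difference of -1.04 ± 0.22 (adjusted p = 0.0019). For CXCL8 they were 0.27 and -0.62, a difference of -0.88 ± 0.21 (adjusted p = 0.00458). For SOD2 they were 0.22 and -0.56, a difference of -0.78 ± 0.20 (adjusted p = 0.00745).

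These 4 genes kept the call under every alternative that was run. Quantile normalization and removal of the trend with level each left 4 of the 9 calls, and NFKB1, NFKBIB, NFKBIA, TNFAIP3 and CCL20 lost theirs. Median centring ended the calls of NFKBIA (-0.47, under the fold threshold) and TNFAIP3 (-0.63, adjusted p = 0.0601). NFKBIA (-0.53 to -0.56) lost its call without Control B, TM 24 h C, Cis 24 h A or Cis/TM 24 h C, and TNFAIP3 lost it without Cis 24 h A (-0.65) or Control A (-0.57). CCL20 lost it without Control C (0.50), and also without any TM 24 h or Cis 24 h array or Cis/TM 24 h A or C (0.66 to 0.88). The Control arrays, on which the SD over genes was smaller than on most treated arrays, enter this term, and the part of that smaller SD in the result was not tested beyond these rescalings.

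**Figure D4:**
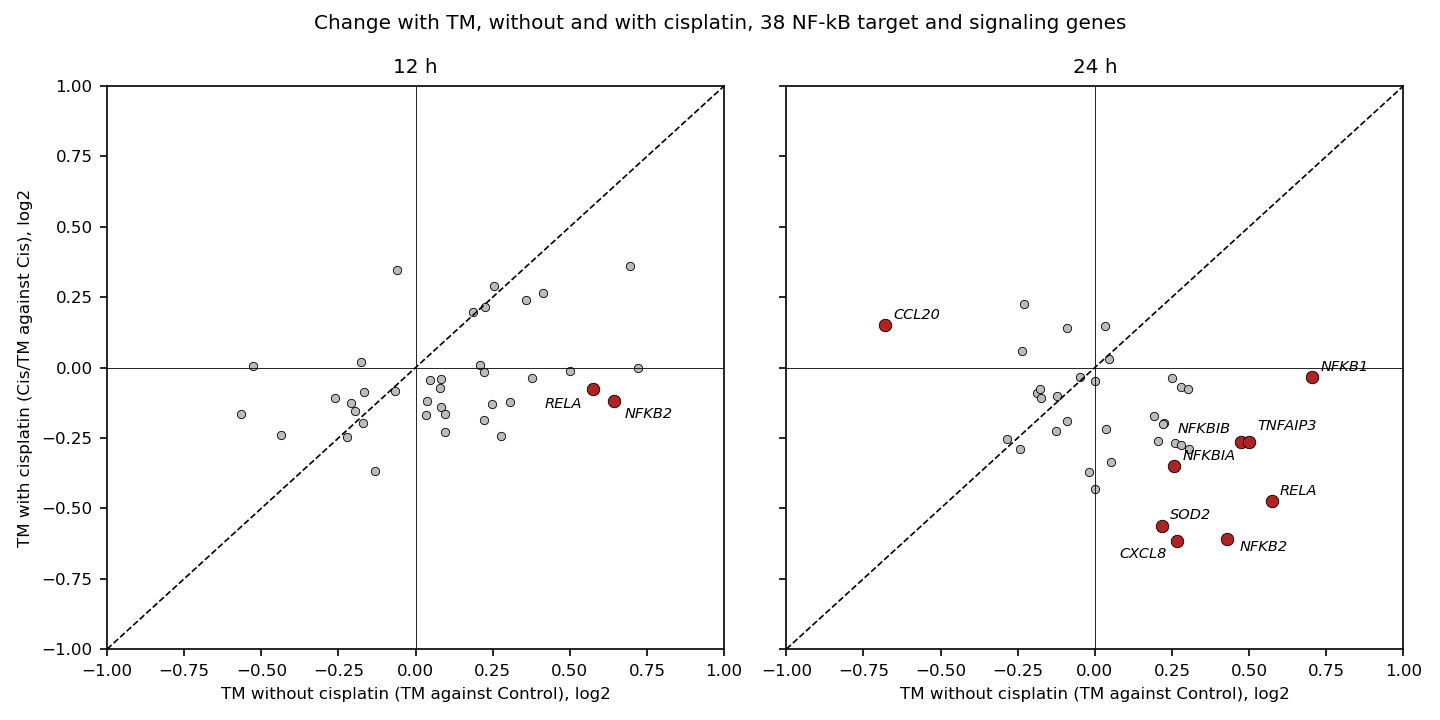
Log2 change with TM in the presence of cisplatin (Cis/TM against Cis, y axis) against the change with TM in its absence (TM against Control, x axis) for the 38 genes at 12 h and 24 h, with equal effects on the dashed line and genes called for the interaction in red. At 24 h 8 red genes lie right of and below the line, with TM alone above 0 and TM with cisplatin below 0, and CCL20 lies on the other side.

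With cisplatin alone, 24 h against 12 h gave 3 rises and 4 falls, which is 7.89% and 10.5% against 7.21% up and 3.42% down of all genes (10.6% called). IL1A (0.77 ± 0.19 SE, adjusted p = 0.00579), NFKB1 (0.81 ± 0.13, adjusted p = 9.25e-05) and REL (0.63 ± 0.12, adjusted p = 0.000594) rose. CD83 (-0.89 ± 0.11, adjusted p = 4.77e-06), CCL2 (-0.77 ± 0.09, adjusted p = 4.23e-06), CXCL2 (-0.63 ± 0.19, adjusted p = 0.02) and CXCL1 (-0.61 ± 0.21, adjusted p = 0.0411) fell. The call of IL1A was lost without Cis 12 h A (0.48), and that of REL without Cis 12 h A (0.52) or Cis 24 h A (0.58), with quantile normalization (0.54) and with the trend removed (0.57). CXCL1 lost its call without Cis 12 h A or B or any Cis 24 h array (-0.49 to -0.65), and CXCL2 without Cis 12 h A or B or Cis 24 h A or C (-0.53 to -0.63), and both lost it under each of the 3 rescalings. CCL2 and CD83 at Cis 24 h thus differed from Cis 12 h in different ways, CCL2 moving away from Control and CD83 back toward it.

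With both drugs, 24 h against 12 h gave 8 genes called down and none up, which is 21.1% against 8.07% of all genes down and 5.67% up (13.7% called in either direction). CD83 (-1.06 ± 0.11 SE, adjusted p = 5.64e-07), CXCL8 (-1.03 ± 0.15, adjusted p = 2.51e-05) and SOD2 (-0.94 ± 0.14, adjusted p = 3.41e-05) fell most. NFKBIB (-0.71), TNFAIP3 (-0.69), CCL2 (-0.68), RELA (-0.64) and NFKBIZ (-0.62) fell as well. Quantile normalization left 5 of these calls and removal of the trend left 4, with NFKBIB, TNFAIP3 and NFKBIZ lost under both. RELA lost its call with the trend removed, and RELA and NFKBIZ lost theirs with median centring. RELA (-0.57) and TNFAIP3 (-0.57) lost theirs without Cis/TM 12 h A, and NFKBIZ (-0.58) without Cis/TM 24 h B. With TM alone no member was called between the times, 0.00543% of all genes were called, and 1 member, NFKBIE, had an unadjusted p under 0.05.

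Cisplatin on top of TM was read from Cis/TM against TM. At 12 h 5 genes were higher and 1 was lower, which is 13.2% against 6.61% of all genes up and 2.63% against 6.98% down (13.6% called). These were CXCL8 (2.55 ± 0.16 SE), CD83 (1.89 ± 0.12), NFKBIZ (0.85 ± 0.14), TNFAIP3 (0.84 ± 0.18) and SOD2 (0.77 ± 0.16), with NFKB1 lower (-0.73 ± 0.14), at adjusted p from 1.08e-09 to 0.00156. At 24 h CXCL8 (1.63 ± 0.15), IL1A (0.93 ± 0.19), CD83 (0.84 ± 0.11) and NFKBIA (0.66 ± 0.11) were higher and CCL2 (-0.92 ± 0.09) was lower, which is 10.5% against 3.53% of all genes up and 2.63% against 2.75% down (6.28% called).

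Other genes of the pathway moved in both directions. Of 30 genes from receptors to kinases 26 were measured, and 3 rose and 5 fell at Cis 12 h (11.5% and 19.2%, against 14.8% and 10.8% of all genes), with a median log2 fold change of -0.04. At Cis 24 h 3 rose and 1 fell (11.5% and 3.85%, against 11.5% and 4.9% of all genes), with a median of 0.17. IL1R1, the receptor of interleukin 1, fell in all 6 comparisons with Control. It fell by 1.87 (log2, SE 0.18, adjusted p = 5.99e-08) at Cis 12 h and fell by 0.60 (adjusted p = 0.0241) at Cis/TM 24 h. TLR3, a sensor of double-stranded RNA, fell by 1.21 and IL1RAP, the co-receptor of IL1R1, by 1.14 at Cis 12 h. Of 13 measured receptors of the ligands in the list, IL1R1 was called down throughout and CSF2RA was called down at Cis/TM 12 h (-0.62 ± 0.12), and none rose against Control. This is 15.4% down at Cis/TM 12 h, against 8.55% of all genes. In each other comparison with Control it is 7.69%, against 2.48 to 10.8% of all genes. Of all genes 4.54 to 15.2% were called up. Each of these receptor shares rests on 1 or 2 genes.

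Among 17 negative regulators outside the list, 3 rose and 3 fell at Cis 12 h (17.6% each way, against 14.8% and 10.8% of all genes). At Cis 24 h 3 rose and 1 fell (17.6% and 5.88%, against 11.5% and 4.9%), so these shares were close to those of all genes. COMMD1, which promotes the degradation of RELA and is also known from copper metabolism, fell by 0.91 (log2, SE 0.12, adjusted p = 5.62e-06) at Cis 12 h and by 1.40 (adjusted p = 4.95e-07) at Cis/TM 24 h. It differed by 0.02 at TM 12 h and -0.23 at TM 24 h. CYLD, a deubiquitinase that restrains the pathway, rose by 1.20 at Cis 24 h, and TNIP2, an A20-binding protein, by 1.18 at Cis 12 h. Of 24 measured other NF-kB targets 7 rose and 1 fell at Cis 12 h (29.2% and 4.17%, against 14.8% and 10.8% of all genes), with a median of 0.17. At Cis 24 h 5 rose and none was called down (20.8% up against 11.5%), with a median of -0.07. For Cis/TM 24 h against Cis 24 h none of these 24 was called, against 1.5% of all genes, and their median was -0.03. Their interaction term at 24 h had a median of -0.02, with 4 negative calls (16.7%, against 11.4% of all genes) and none positive (against 5.08%). BCL2A1, an anti-apoptotic BCL2 relative, rose by 2.75 at Cis 12 h and 2.90 at Cis/TM 12 h. GADD45B, a stress-induced gene, rose by 2.59, and TNFSF15, a TNF family ligand, by 2.29, both at Cis 12 h.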

How the data were processed

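MDA-MB-231 RNA was measured on 20 Affymetrix Human Gene 1.0 ST arrays. The authors turned probe intensities into log2 values with RMA (background correction, normalization between arrays and 1 value per transcript cluster), as their methods and processing notes say, and these deposited log2 values were used as they stand. RMA shrinks differences at low signal. A gene was represented by the transcript cluster with 1 symbol and the highest mean over the arrays (18417 genes). A model with 7 group means was fitted to the 20 arrays with limma 3.58.1 in R 4.3.3 (13 residual degrees of freedom), with eBayes moderation and Benjamini-Hochberg adjustment over all genes. A call needed a fold over 1.5 with an adjusted p under 0.05, whereas the methods apply that fold with P under 0.05. The number of arrays limits the precision.

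The genes, the other lists and the rules were chosen with earlier results of these data known. Values on every array are given for the 12 called genes with the largest change against Control and for NFKB1. At most 3 genes of each other list are named, by the size of their change. Alternatives were median centring, quantile normalization, removal of the trend with level by lowess, leaving out the lowest 25% of genes, the mean of clusters, an unadjusted p, only the compared arrays, a replicate block, a variance trend and leaving out arrays. Arrays with the same letter did not deviate together as a rule (57 pairs, median residual correlation 0.008). The correlations ran from -0.423 to 0.613, so some pairs did.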

Additional observations from a re-analysis of the deposited data

Results flagged for a closer look

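The change with TM differed between cells with and without cisplatin by a test of the interaction term (limma, Benjamini-Hochberg) for the following results, and no cause was examined. At 24 h the term was -1.05 ± 0.15 (log2, SE) for RELA (adjusted p = 9.31e-05), -1.04 ± 0.22 for NFKB2 (adjusted p = 0.0019) and -0.88 ± 0.21 for CXCL8 (adjusted p = 0.00458). It was -0.78 ± 0.20 for SOD2 (adjusted p = 0.00745), -0.74 ± 0.18 for NFKB1 (adjusted p = 0.00576) and -0.74 ± 0.12 for NFKBIB (adjusted p = 0.000202). For TNFAIP3 it was -0.76 ± 0.23 (adjusted p = 0.0203), for NFKBIA -0.61 ± 0.15 (adjusted p = 0.00702) and for CCL20 0.83 ± 0.28 (adjusted p = 0.0405). At 12 h it was -0.65 ± 0.16 for RELA (adjusted p = 0.0123) and -0.76 ± 0.23 for NFKB2 (adjusted p = 0.0351). Both times share the Control arrays, so they are not independent. All 3 rescalings ended both 12 h calls. At 24 h quantile normalization and removal of the trend each ended those of NFKB1, NFKBIB, NFKBIA, TNFAIP3 and CCL20. Median centring also ended those of NFKBIA and TNFAIP3. Negative calls were 5.26% of the 38 genes and 6.87% of all genes at 12 h, and 21.1% and 11.4% at 24 h. In either direction 10.3% of all genes were called at 12 h and 16.5% at 24 h.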

How the results depend on the processing

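Over the 15 comparisons the 38 genes had 88 calls, and no call changed its direction under any alternative. Median centring lost 15 calls and gained 4, quantile normalization lost 24 and gained 6, removal of the trend lost 24 and gained 2, and without Cis 12 h A and TM 24 h A 7 were lost and 3 gained. Leaving out single arrays lost 23 calls and gained 37 in at least 1 instance. The cause of these losses was not tested. Leaving out the lowest 25% of genes removed CCL20, IL1B and VCAM1.

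Counts that moved by over 1.5 times were these. For TM 12 h against Control (3) the count was 1 with quantile normalization, with the trend removed and with only the compared arrays. For TM 24 h against Control (2) it was 0 with quantile normalization, and 1 with the trend removed, without the lowest 25% of genes and with only the compared arrays. For Cis/TM 24 h against Cis 24 h (2) it was 0 under all 3 rescalings. For Cis/TM 24 h against Cis/TM 12 h (8) it was 5 with quantile normalization and 4 with the trend removed. The interaction at 12 h (2) fell to 0 under all 3 rescalings and to 1 with only the compared arrays or without Cis 12 h A and TM 24 h A. The interaction at 24 h (9) fell to 4 with quantile normalization and with the trend removed.

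Leaving out single arrays gave 2 to 4 calls for TM 24 h against Control, 0 to 3 for Cis/TM 24 h against Cis 24 h, 4 to 7 for Cis 24 h against Cis 12 h, 0 to 3 for the interaction at 12 h and 6 to 11 for that at 24 h. With the replicate block no call was lost, and the count for Cis/TM 12 h against TM 12 h went from 6 to 8 (CXCL1 0.65 and CXCL2 0.64). For genes of low signal a change under the fold threshold may be missed.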
